A study of Mus musculus with 3 samples.

Results

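Intronic HBO1 peaks away from transcription start sites (TSSs) were taken from the HBO1 peak list of mouse embryonic stem cells (ESCs) as the peaks on chromosomes 1 to 19 whose nearest edge lay more than 1000 bp from every annotated TSS and whose summit lay inside a gene and outside every annotated exon. Summits in the 41 Mb of chromosome 3 that begin at 100 Mb were left out, which removed 271 further intronic peaks. The rule kept 3047 of the 13823 peaks, or 22.0% of the list. On the same chromosomes, 5368 peaks lay within 1 kb of a TSS, 773 had their summit in an exon and 3449 were intergenic.

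The list came from ChIP-seq of Oct1 deficient mouse ESCs, with 2 HBO1 ChIP samples and 1 input sample, which all carried the Oct1 deficiency, a medium with 3 µM CHIR99021, 1 µM of a MEK inhibitor and ascorbic acid, and fixation in 1% formaldehyde. The labels title both ChIP samples HBO1 but give the antibody of the second as HBO2. Both samples stand in 1 peak list, so no spread between replicates could be computed, and there is no ChIP of cells with Oct1. No expression was measured, so the cell type was not checked against its markers.

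HBO1, also called KAT7, is a MYST family acetyltransferase that works with a scaffold protein of the JADE or BRPF family, an ING4 or ING5 reader of methylated histone H3, and MEAF6. The scaffold decides whether the complex acetylates mainly histone H4 or histone H3. Introns of mammalian genes hold many enhancers as well as old transposons, and both first introns and the sequence downstream of promoters are often in open chromatin.

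Sequences of 4 of the 5 peaks with the greatest fold enrichment (the authors' ratio of ChIP signal over local background) are shown because they anchor the host genes described below. They are read from GRCm38 on the plus strand, centered on the summit, and shortened where a stretch of 30 bases also occurs on a chromosome whose sequence is not printed here. Capitals mark CACCC, a Klf motif, on either strand. The GC box GGGCGG and AAGATGG, the YY1 motif, had no match in these stretches.
Zfp600, chr4:146167933-146168032: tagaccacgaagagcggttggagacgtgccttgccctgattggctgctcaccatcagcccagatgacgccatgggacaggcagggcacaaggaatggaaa
Zmynd8, chr2:165823213-165823412: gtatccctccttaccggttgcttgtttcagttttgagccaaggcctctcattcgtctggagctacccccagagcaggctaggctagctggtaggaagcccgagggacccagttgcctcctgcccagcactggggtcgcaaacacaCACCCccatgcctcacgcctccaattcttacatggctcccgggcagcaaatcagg
Zfp988, chr4:147310558-147310757: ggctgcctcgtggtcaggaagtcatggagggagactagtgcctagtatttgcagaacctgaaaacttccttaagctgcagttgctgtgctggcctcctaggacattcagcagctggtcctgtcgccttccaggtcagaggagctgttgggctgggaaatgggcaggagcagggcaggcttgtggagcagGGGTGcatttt
Lncenc1, chr13:97493329-97493528: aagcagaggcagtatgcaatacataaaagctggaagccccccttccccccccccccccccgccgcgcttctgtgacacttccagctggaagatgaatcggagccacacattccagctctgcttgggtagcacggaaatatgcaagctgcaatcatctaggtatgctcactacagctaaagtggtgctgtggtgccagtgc

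The intronic peaks had a median fold enrichment of 4.80, from 1.61 to 14.2, and a median width of 338 bp. The median −log10 q, the peak caller's corrected significance, was 6.15, and 470 peaks or 15.4% reached 10. The intergenic peaks had nearly the same median fold, 4.59, whereas peaks at TSSs, within 1 kb, had a lower one, 2.68, and a higher median −log10 q, 7.74. Because the fold is a ratio over the local background, it has to be read with the input. The input gave 31973678 aligned read ends, and their midpoints numbered a median of 9 within the 1 kb around intronic summits, 10 around intergenic summits and 80 around summits near TSSs. Where the input had 0 to 5 read ends, the median fold was 5.55 in all of these classes, and where it had 41 to 100 it was 2.52 for intronic peaks, 2.48 for intergenic peaks and 2.57 for peaks near TSSs. Since every listed peak passed the peak caller's q threshold and the fold has the background below it, these values at like input do not compare the strength of the classes. At low input, peaks of different genes could have the same fold. Those with the highest fold in Braf and Kat6b, with 4 and 2 input read ends, both had 8.76 and a −log10 q of 13.8. The order of genes by fold below therefore holds ties. A single peak list gives no replicate error, so the comparison of classes and those below are descriptions with no test. Intervals are exact binomial 95% intervals that cover counting error only.

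HBO1 peaks lay in the introns of 2114 genes, of which 1797 were protein-coding. These protein-coding hosts held 2630 of the peaks, and lincRNA genes held 247. Where genes overlapped, the host was the protein-coding one, then the longest. Of the hosts, 1590 had 1 intronic peak, 332 had 2, 150 had 3 or 4, and 42 had 5 or more. These 42 genes held 306 peaks. Of the 16694 protein-coding genes with any sequence that met the rule, 10.8% held an intronic peak. The share rose with the amount of such sequence, from 0.599% in the decile with the least to 40.2% in the decile with the most, and the median host was 88 kb long against 23.6 kb for all of these genes.

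The host genes also carried HBO1 at their own promoters more often than other genes. An HBO1 peak within 1 kb of a TSS of their own was found in 652 of the 1796 protein-coding hosts with such sequence (36.3%, 95% interval 34.1 to 38.6), against 23.6% of all 16694 genes and 22.1% of the genes without an intronic peak. Hosts with 2 or more intronic peaks reached 46.9% (223 of 475). Weighted to the length of eligible sequence in the hosts, the share over all genes was 27.7%. In the decile of genes with the most eligible sequence, 31.4% of the hosts and 22.8% of the other genes had a promoter peak. The share differed with the kind of intronic peak. It was 39.4% in the 1324 hosts whose intronic peaks shared no sequence with another intronic peak. In the 372 hosts whose intronic peaks all did, it was 22.3% (95% interval 18.2 to 26.9). This interval includes the 23.6% of all genes but not the 27.7% weighted to the length of all hosts. The split itself was not weighted to length, and the part of length in it was not tested.

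The position of the peaks along the host genes was compared with all 400-bp windows of the genome that met the same rule. These 2337650 windows cover 935 Mb, so the average density was 3.26 peaks per Mb. First introns held 1056 of the 3046 peaks that could be placed in an intron (34.7%, 95% interval 32.98 to 36.4), against 29.3% of the windows, and 30.7% of windows weighted to the GC content of the peaks. Second introns held 18.6% of the peaks and 17.99% of the windows. Per Mb, the density was 3.86 in first introns, 3.37 in intron 2, 3.05 in intron 3, 2.76 in introns 4 and 5, and 2.39 in introns 11 to 20. Introns 6 to 10, at 3.36 per Mb, and introns over 20, at 2.51, were out of this order. When each peak was given the lowest intron number in any transcript of its host, 45.9% were in first introns, a share not computed for the windows. The intron number thus depended on the transcript chosen, here the APPRIS principal transcript, then the longest protein-coding one, and 227 peaks lay outside the introns of that transcript and were placed in another.

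**Figure D1:**
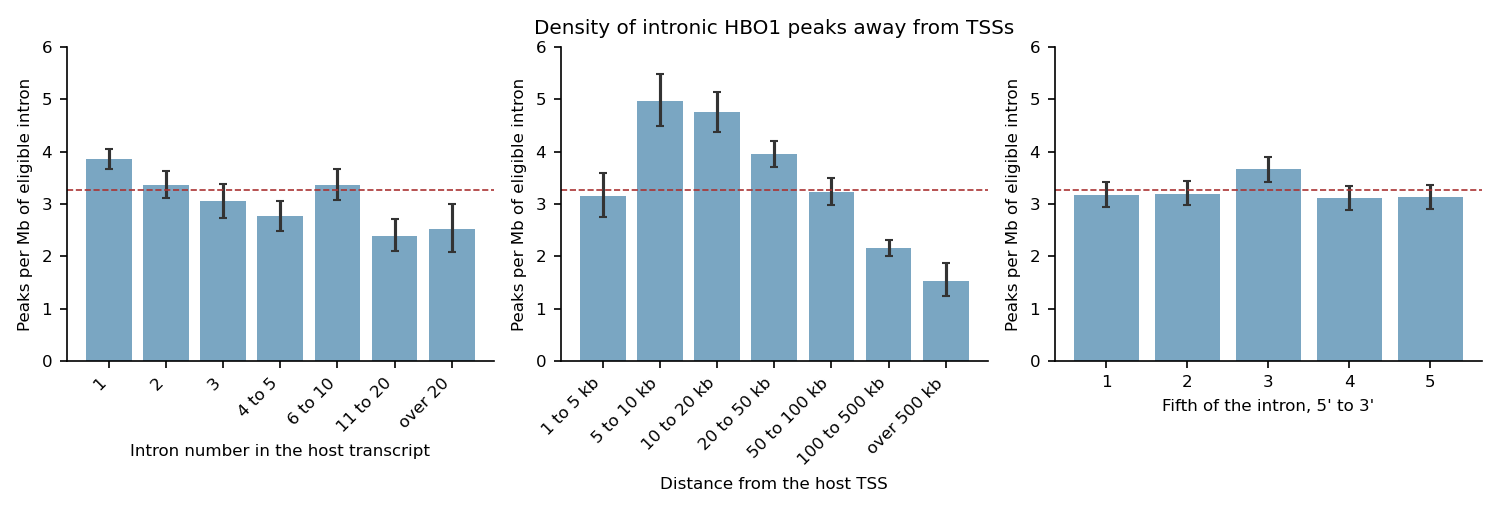
Intronic HBO1 peaks per Mb of intron sequence that met the same rule (y axis), by intron number, by distance of the summit from the TSS of the host transcript, and by place in the intron in steps of 20% of its length from the 5′ end. Bars show the density, error bars the exact binomial 95% interval of the share scaled to the density, and the dashed line the average of 3.26 per Mb, with the highest density, 4.97 per Mb, at 5 to 10 kb from the TSS.

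The density of the peaks also varied with the distance from the host TSS. The median peak lay 33663 bp from its host's TSS, against 56581 bp for the windows. The density was 3.15 peaks per Mb at 1 to 5 kb, 4.97 at 5 to 10 kb, 4.75 at 10 to 20 kb and 3.95 at 20 to 50 kb, and it was 2.15 at 100 to 500 kb and 1.53 beyond 500 kb. From the nearest TSS of any gene, 7.12% of the peaks but 16.3% of the windows lay more than 50 kb away. Weighting the windows to the GC content of the peaks brought that share to 8.62%, and the share 5 to 10 kb from the host TSS from 7.66% to 10.0%, against 11.7% of the peaks. At 1 to 5 kb it brought the share of the windows from 6.86% to 9.67%, above the 6.63% of the peaks. GC content therefore moved with the distance in these windows, and its part in the distance pattern beyond this weighting was not tested.

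Within the intron, the peaks showed little preference for either end. The median relative position was 0.499 of the way from the 5′ to the 3′ splice site, against 0.505 for the windows. The middle 20% of the intron length held 23.2% of the peaks (95% interval 21.8 to 24.8) and 20.7% of the windows. The 20% at the 5′ end held 18.1% of the peaks and 18.6% of the windows. At the 3′ end these shares were 18.9% and 19.7%. Close to exons the raw and the GC-weighted comparison went opposite ways. Summits within 200 bp of an exon made up 9.26% of the peaks against 5.59% of the windows, but 13.4% of windows weighted to the GC content of the peaks. Introns of 5 to 20 kb had the highest density, 3.85 per Mb, and introns of 100 to 500 kb the lowest, 2.21 per Mb. GC weighting turned the comparison for the latter, which held 14.5% of the peaks, 21.4% of the windows and 12.1% of GC-weighted windows. Introns under 5 kb held 17.2% of the peaks against 16.8% of the windows, but 26.3% of GC-weighted windows.

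The peaks lay in sequence of higher GC content than the windows. The 400 bp around intronic summits had a median GC content of 54.0%, with the middle 50% of peaks between 52.3% and 56.1%, while the windows had a median of 42.3%. No peak lay in sequence of 30 to 35% GC or 35 to 40% GC, which made up 10.0% and 23.3% of the windows. The density was 0.0557 peaks per Mb at 40 to 45% GC, 0.959 at 45 to 50%, 17.5 at 50 to 55%, 45.1 at 55 to 60%, 54.0 at 60 to 65% and 355 at 65 to 70%. Without the peaks that share sequence with another intronic peak (described below), it did not rise steadily at the top, with 39.9 at 55 to 60%, 17.3 at 60 to 65% and 37.0 at 65 to 70%. The median ratio of observed to expected CpG was 0.275 in the peaks and 0.161 in the windows, and 0.847 at peaks near TSSs. The input moved with GC content as well: the windows had a median of 2 input read ends at 40 to 45% GC and 86 at 65 to 70% GC. Around the peaks the median was lower than in the windows at 50 to 55% GC (6 against 8) and 55 to 60% (11 against 28). It was higher in the other classes that held peaks, with 107 against 86 at 65 to 70%. The part of the input in the GC content of the peaks was not tested, and the ChIP reads themselves were not analysed here.

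**Figure D2:**
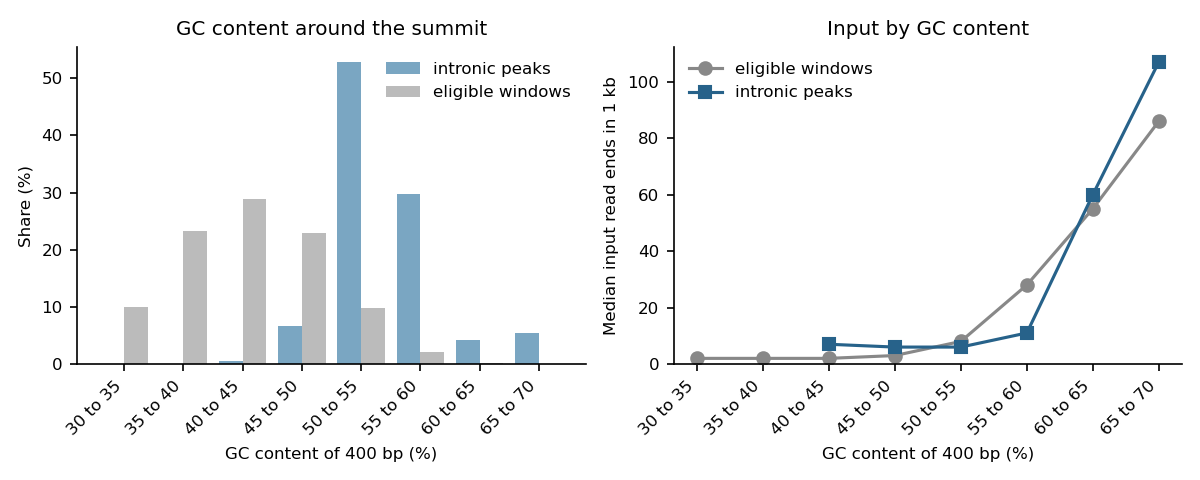
Left, the share of intronic HBO1 peaks and of eligible windows (y axis, %) in each class of GC content of the 400 bp (x axis), with 52.8% of the peaks but 9.86% of the windows at 50 to 55% GC. Right, the median number of input read ends in 1 kb around peaks and windows of each class, which rises from 2 to 86 in the windows between 40 to 45% and 65 to 70% GC.

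The peaks with the highest fold lay in large part in 1 cluster of zinc finger genes. Of the 15 peaks with the highest fold, 8 lay on chromosome 4 between 146 and 148 Mb, in a cluster of KRAB zinc finger genes, which encode DNA-binding repressors many of which act on transposons. The highest was in intron 2 of Zfp600, with a fold of 14.2 and a −log10 q of 76.5, and Zfp988 had 13.4, Zfp978 12.0, Zfp979 11.3 and Zfp991 10.5. Rex2, a member of the same family and not the pluripotency gene REX1, had folds of 12.0 and 11.2 in intron 2. Gm26573, a lincRNA gene of the same cluster, had 10.5.

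Outside this cluster, a peak in intron 10 of 21 of Zmynd8 had a fold of 13.7 and a −log10 q of 67.03. Zmynd8 encodes a reader of acetylated and methylated histones. Lncenc1, a long noncoding RNA of naive ESCs, had 12.5 in its only intron, 976 bp from the nearest exon, and Zfp42, which encodes the pluripotency marker REX1, had 11.03 in intron 3. The remaining peaks of the 15 were in Sntg1, a syntrophin gene (11.2), Gm3259 (10.98), the kinase gene Nek7 (10.5) and the pseudogene Gm2619 (10.4). Of the 15, 11 shared a stretch of 50 bases with another intronic peak, and Zmynd8, Lncenc1, Zfp42 and Zfp600 were the ones that did not.

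In the chromosome 4 cluster, peaks of like sequence recurred in related genes, at like distances from the TSS in some pairs and not in others. Its bounds were set, after the values were seen, at the whole Mb around the zinc finger genes with strong peaks. It held 42 intronic peaks with a median fold of 6.38, and 29 of them shared 50 bases with another intronic peak. In Zfp978 and Zfp979 the summits of the strongest peaks lay 12895 and 12905 bp from the TSS, both in intron 2, and the 300 bp around them were 99.3% identical, with 2 edits between them. A second pair in the same introns, 8439 and 8452 bp from the TSS, was 97.3% identical, with folds of 5.88 and 8.27, and the first of these was 98% identical to a peak of fold 9.49 in Zfp600, 12114 bp from the TSS. Peaks of Zfp993 and Rex2 that were 88.3% identical lay 24836 and 14151 bp from the TSS. In the closest pair no input read end was placed with confidence: the Zfp978 and Zfp979 summits with folds of 12.0 and 11.3 had 3 and 2 input read ends, none with a mapping quality of at least 20. Other copies had some: 2 of 20 read ends had that quality at the Rex2 summit with a fold of 11.2, and 2 of 5 at that of Zfp991. Across the cluster 15 of the 42 peaks had no such input read end, against 251 of all 3047, although over all input read ends around its peaks 63.99% had that quality, against 56.3% for all intronic peaks. Whether each copy was occupied, or reads of 1 copy were spread over several, cannot be told apart from these files.

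A different set led by −log10 q. Of the 10 highest, 6 had more than 100 read ends of the input around the summit. The first was in intron 1 of Camk4, a calcium-dependent kinase gene, with a −log10 q of 146 and a fold of 5.41, but 258 input read ends, of which 8 had a mapping quality of at least 20. Aida had 120 at a fold of 5.62 with 138 input read ends, nearly all of that mapping quality (134). Sfi1, with a −log10 q of 82.6, and Tmem267, with 74.6, had low folds, 3.14 and 2.83, and 382 and 579 input read ends. Gm26804 reached 96.1, Gm31371 66.5, Gm32511 65.2 and the gene of polycystic kidney disease Pkhd1 62.8. Only the peaks of Zfp600 and Zmynd8 were in both the 15 highest by fold and the 10 highest by −log10 q. They had the fewest input read ends of these 10, 15 and 16, against a median of 9 over all intronic peaks.

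Some genes carried many intronic peaks. By the rule for hosts, the protein-coding genes with the most were Fgfr2, with 22, and Gm20388 and Msi2, with 15 each. In Fgfr2, a receptor of fibroblast growth factors, 19 of the 22 lay in a single intron of 2908817 bp that belongs to a transcript spanning several other genes. When each peak was given to the shortest protein-coding gene around it, 4 stayed with Fgfr2 and 11 fell in Ctbp2, a corepressor gene. In the same way Gm20388, whose first intron spans 4384418 bp, kept 5 of 15.

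Msi2, an RNA-binding protein gene of stem and progenitor cells, held 15 intronic peaks whichever host was used, in introns 5 to 8 of 13. The folds ran from 3.88 to 7.52 with a median of 4.77, and the peaks were spread from 28657 to 313451 bp from the TSS. The highest folds, 7.52, 7.46 and 7.36, lay in different introns, 7, 6 and 5. Only 1 of the 15 shared sequence with another intronic peak.

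Esrrb, an orphan nuclear receptor gene of the naive pluripotency network, held 12 intronic peaks in 0.147 Mb of eligible sequence, or 81.7 per Mb. The folds ran from 2.68 to 7.77 with a median of 4.47. The highest pair, 7.54 and 7.77, lay 40914 and 42725 bp from the TSS of the transcript used, in its first intron, and had 5 and 2 input read ends. A trio with folds of 5.25, 4.44 and 4.49 lay in intron 3, between 67024 and 69685 bp. The lowest, 2.68, was in an intron of only 423 bp. None of the 12 shared sequence with another intronic peak, and Esrrb also had a promoter peak.

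Zmynd8 and Kat6b held 9 each. In Zmynd8, 5 of the 9 were in intron 10, where the peak of fold 13.7 was flanked by peaks of 2.56, 4.02, 3.77 and 3.72 within a few kb. In Kat6b, which encodes a MYST acetyltransferase related to HBO1, the folds ran from 2.66 to 8.76. The highest, with 2 input read ends, lay in intron 2, 54456 bp from the TSS of the transcript used. Tns3, a focal adhesion gene, held 10 with folds of 3.32 to 6.78. Ywhag, a 14-3-3 gene of 26.2 kb, held 7 in its only intron with folds of 2.89 to 7.77, and Myo10, an unconventional myosin of filopodia, held 7 with folds of 3.80 to 6.55. C130026I21Rik, in a cluster of related genes on chromosome 1, held 8, of which 4 shared sequence with another intronic peak. All 10 protein-coding genes with the most intronic peaks also had a promoter peak, against 46.9% of hosts with 2 or more intronic peaks and 23.6% of all genes, with Fgfr2 and Gm20388 among the 10 by their long transcripts.

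**Figure D3:**
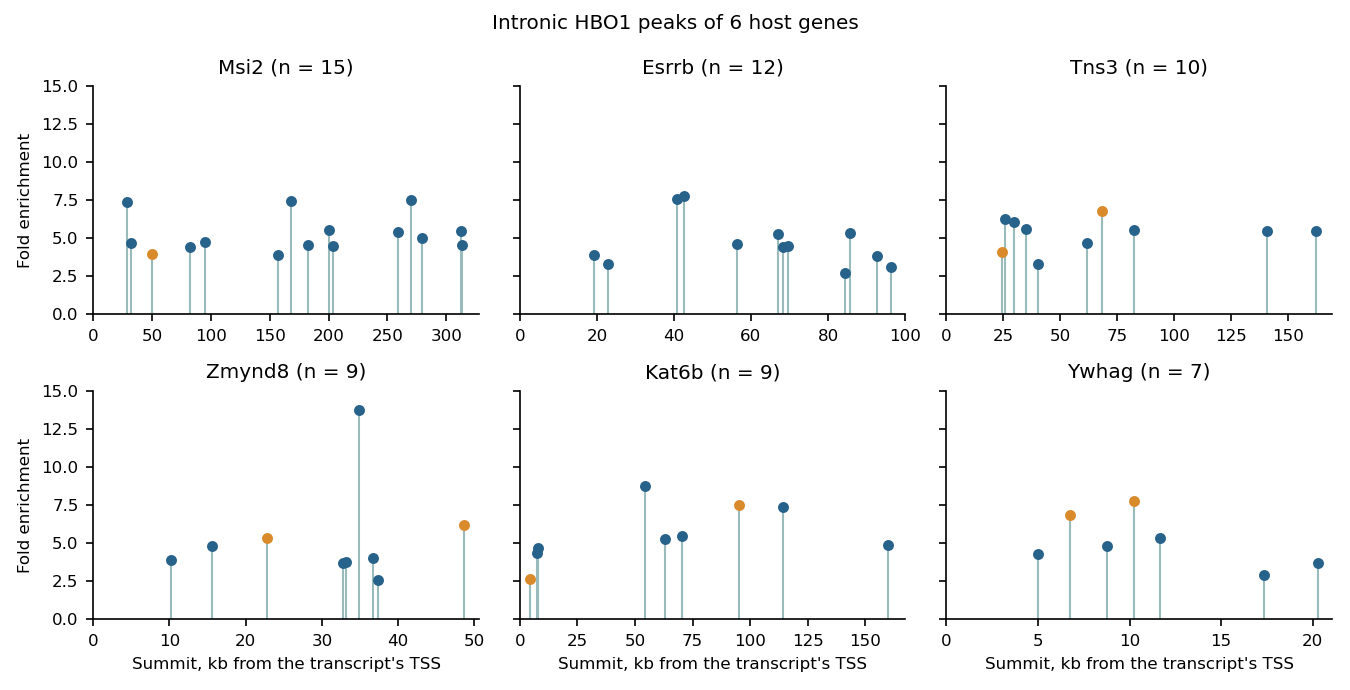
Fold enrichment (y axis) of every intronic HBO1 peak in 6 of the hosts with the most, by distance of its summit from the TSS of the transcript used (x axis, kb). The transcript used differs between peaks of the same gene in Esrrb, Zmynd8 and Kat6b. In these panels the spacing of points is therefore not always the spacing along the chromosome. Orange points share 50 bases with another intronic peak and blue points do not, and the Zmynd8 peak of fold 13.7 stands above all others shown.

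Genes of the pluripotency network and of acetyltransferase complexes were among the hosts. Of 25 pluripotency genes with eligible sequence, 6 held an intronic peak (24.0%, 95% interval 9.36 to 45.1), against 10.8% of all genes and 7.17% of genes in the same deciles of eligible length. They were Zfp42 (11.03), Tfcp2l1 (8.01), Esrrb (7.77), Prdm14 (7.27), Trim71 (6.68) and Nr5a2 (5.09), given with their highest fold. At these highest peaks the input was 2 to 14 read ends, with a median of 9, the same as over all intronic peaks. None of these highest peaks shared sequence with another intronic peak. A promoter peak was also present in 5 of the 6 genes, as in 19 of all 25 genes of the list. The list had 36.3 peaks per Mb, of which the 12 peaks of Esrrb were more than all the rest.

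Of 22 genes of the HBO1 complex and other acetyltransferases, 4 were hosts (18.2%, 95% interval 5.19 to 40.3), close to the 14.5% of genes of like length. The highest fold of the 4 was 9.34, in the first intron of Jade1, the gene of a scaffold of HBO1 itself, 15876 bp from its TSS. Jade1 held 5 intronic peaks in a gene of 61.1 kb. Kat6b followed at 8.76, Brd1, also called BRPF2 and another scaffold of HBO1, at 6.20, and the coactivator gene Ncoa3 at 5.79. All 4 had a promoter peak as well, as did 15 of all 22 genes of the list.

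In the signaling lists, 13 of 37 genes of the ERK pathway were hosts (35.1%, 95% interval 20.2 to 52.5), against 14.2% of genes of like length. The kinase gene Braf had the highest fold, 8.76, followed by the adaptor Gab1 (7.77), Fgfr2 (7.54, in the long intron above, within Cpxm2), the scaffold Ksr1 (7.01) and Spred2, an inhibitor (5.29). This Fgfr2 peak shared sequence with another intronic peak, and none of its 6 input read ends had a mapping quality of at least 20. With a −log10 q of at least 5, 9 of 37 were hosts (24.3%), against 7.88% of all genes and 10.4% of genes of like length. Of 34 Wnt genes, 3 were hosts (8.82%, 95% interval 1.86 to 23.7, which includes the 15.8% of genes of like length), the repressor Tcf7l1 (7.45), Ctnnb1, the gene of β-catenin (7.32), and the kinase Gsk3b (5.20). Of 17 genes of the LIF and STAT3 pathway, only the receptor gene Lifr was one (5.79), and the interval of the share, 0.149% to 28.7%, includes the 14.6% of genes of like length. Of 32 genes of TGF-beta and BMP signaling, 8 were hosts (95% interval 11.5% to 43.4%), against 16.03% of genes of like length, with folds of 2.68 to 5.29, and 4 of 32 (12.5%) against 11.9% of genes of like length with a −log10 q of at least 5. Among them were the coreceptor gene Tgfbr3 (5.29), the corepressor Ski (5.15), the ligase Smurf1 (4.93), the receptor Acvr2b (4.40) and the ligand Bmp7 (3.43).

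Of 26 Polycomb genes, 4 were hosts (15.4%), close to the 11.7% of genes of like length. They were Kdm2b, which recruits a variant complex to CpG islands (6.78), Aebp2 (6.29) and Jarid2 (5.29), accessory subunits of PRC2, and Cbx7, a reader of PRC1 (2.73). Of 16 DNA methylation genes, 4 were hosts, and the interval of the share, 7.27% to 52.4%, includes the 10.7% of genes of like length. These had folds of 5.39 in Tet1, an oxidase of methylcytosine, 5.24 in Zbtb38, a reader, 4.75 in Uhrf1, the cofactor of maintenance methylation, and 3.08 in the methyltransferase gene Dnmt1. Of 42 lineage transcription factors, 11 were hosts, with Tead1 (8.48), Pax2 (6.78), Tead4 (5.66) and Foxp1 (4.16) the highest of those reported, and Runx1 at the same fold as Foxp1. Their interval, 13.9% to 42.0%, includes the 16.9% of genes of like length.

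The long neuronal adhesion and synapse genes held sparse peaks. Of 49, 22 were hosts (44.9%), but so were 40.2% of genes of like length, and at 0.849 peaks per Mb they had the lowest density of the 10 lists. The highest folds were in Cntnap2 (9.57), Ntm (8.01), Magi2 (7.03) and Tenm4 (6.04) among those reported. In 13 of the 22 the strongest peak shared sequence with another intronic peak. Such peaks were common in long introns in general: they made up 42.3% of the peaks in introns of 100 to 500 kb and 39.7% in longer ones, against 25.01% of all intronic peaks. Of the 22, 4 had a promoter peak, and of all 49 genes of the list 5 did (10.2%). The median host had 13.5 input read ends at its strongest peak, up to 134 in Nlgn1.

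Many of the intronic peaks shared sequence with each other. A stretch of 50 bases within 200 bp of the summit occurred exactly, on either strand, at another intronic peak for 762 peaks (25.01%, 95% interval 23.5 to 26.6), which fell into 56 linked groups. Counting matches to HBO1 peaks of any class, the share was 27.0% for intronic peaks, 52.5% for intergenic peaks, 5.30% for exonic peaks and 8.14% for peaks within 1 kb of a TSS. Peaks that shared sequence with another intronic one had a lower median fold, 3.98 against 4.86 in the other 2285, with a median of 18 input read ends against 8, of which 25.2% against 92.6% had a mapping quality of at least 20. Their median 400 bp was 100% soft-masked as repeat in the reference, against 7% in the others. The share with shared sequence was not computed for the windows. At least 50% of the 400 bp was soft-masked in 28.1% of all intronic peaks and 20.3% of the windows. The median masked share was 12.5% in the peaks and 20.25% in the windows.

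The 7 largest groups held 604 of these peaks, and the reference used gave no repeat family for them. A stretch from the 4 groups with the most widely held ones is shown, the most common one of each without a copy on a chromosome whose sequence is not printed here, on the strand named. Capitals mark CACCC on either strand.
group 1, in Vmn2r35, chr7:7801598-7801647, plus strand: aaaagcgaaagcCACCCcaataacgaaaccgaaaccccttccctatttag
group 2, in Gm40375, chr12:32418207-32418256, plus strand: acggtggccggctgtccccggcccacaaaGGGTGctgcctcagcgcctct
group 3, in Gm40652, chr10:57138956-57139005, minus strand: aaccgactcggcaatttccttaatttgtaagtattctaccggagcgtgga
group 6, in Rex2, chr4:147033948-147033997, minus strand: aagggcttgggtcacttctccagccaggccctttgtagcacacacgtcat

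The stretch of group 1 was held by 8 intronic peaks, and 14 of its 43 exact copies on chromosomes 1 to 19 lay within 200 bp of an HBO1 summit of any class. For group 2 these numbers were 5 peaks and 9 of 69 copies, for group 3 they were 8 peaks and 25 of 76 copies, and for group 6 they were 6 peaks and 9 of 40 copies. The stretch most widely held in each group, not shown, was more abundant: in group 2 it was in 131 of the 145 peaks and had 4325 copies, of which 16.3% lay near a summit, and in group 3 it had 958 copies, 21.9% of them near a summit. All these stretches were chosen because many peaks held them, which raises the share of their copies near a summit. The shares are therefore not rates for repeats in general.

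The groups differed in their input. Groups 1 and 6, with 213 and 28 peaks, had median folds of 5.30 and 5.79, 7 and 8 input read ends and 51.3% and 53.0% GC. Sntg1 had the highest fold of group 1 (11.2) and Rex2 of group 6 (11.2), ahead of Nek7 (10.5). Groups 2, 5 and 7, with 145, 37 and 24 peaks, had median folds of 2.38, 2.30 and 2.31, with 106, 104 and 89.5 input read ends, of which 14.4% to 21.3% had a mapping quality of at least 20, and 64.3% to 66.5% GC. All 145 peaks of group 2 and all 37 of group 5 held the YY1 motif AAGATGG. Groups 3 and 4, with 116 and 41 peaks, lay between, with median folds of 3.35 and 2.73 and 25 and 48 input read ends. The groups were spread over 11 to 19 chromosomes and, in group 1, over 189 host genes. In group 1, where 39 peaks held the most common stretch and so could be oriented, it ran in the direction of the host gene in 9. For groups 2 to 7 the counts were 59 of 131, 32 of 47, 6 of 24, 21 of 36, 10 of 19 and 8 of 19.

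**Figure D4:**
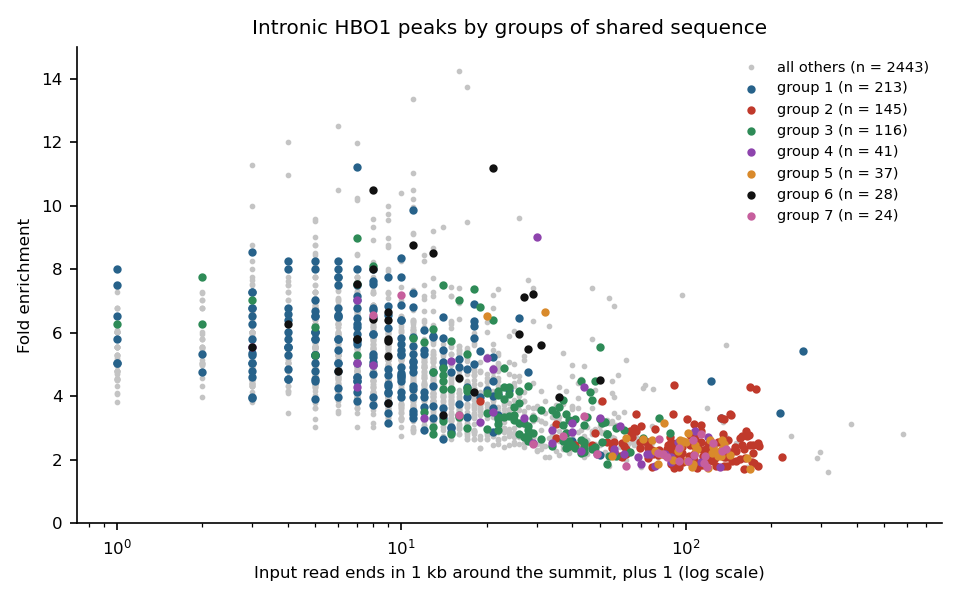
Fold enrichment (y axis) of every intronic HBO1 peak by its input read ends (counted over 1 kb at the summit) plus 1 (x axis, log scale), with the 7 largest groups of peaks with shared sequence in color. Groups 2, 5 and 7 sit at the right, with median inputs of 89.5 to 106 and folds near 2.3, and groups 1 and 6 at the left, with medians of 7 and 8.

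Short motifs were searched on both strands in the 400 bp around each summit and in the windows. The octamer ATGCAAAT, the site of Oct4 and Oct1, was in 33 peaks (1.08%, 95% interval 0.747 to 1.52) against 3.10% of the windows. Since the octamer is rich in A and T and the peaks in G and C, windows weighted to the GC content of the peaks had it in 0.899%, and the direction of the difference turned. The MORE, 2 half-sites ATGCAT in a row, was in 1 peak, in intron 2 of Gnao1, which encodes a G protein subunit, and in 0.0256% of the windows and 0.00641% of GC-weighted windows. Among the octamer peaks of highest fold was one in C130026I21Rik. Of its 2 octamers shown, the nearer lay 139 bp from the summit and the other just past the end of the peak. These sites are shown on the plus strand with the matches in capitals.
Gnao1, chr8:93890292-93890351: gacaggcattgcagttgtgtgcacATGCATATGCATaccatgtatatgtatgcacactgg
C130026I21Rik, chr1:85030585-85030644: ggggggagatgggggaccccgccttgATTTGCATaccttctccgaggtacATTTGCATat

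The Gnao1 peak had a fold of 4.997, above the median of 4.80 over the intronic peaks. Its −log10 q of 4.50 was below their median of 6.15, and its MORE lay 27 bp from the summit. The C130026I21Rik peak had a fold of 7.15. The GC box GGGCGG was in 20.02% of the intronic peaks (95% interval 18.6 to 21.5) and 15.5% of GC-weighted windows, and AAGATGG in 16.9% (15.6 to 18.3) and 12.3%. Both differences were carried by the peaks with shared sequence, where the motifs were in 41.5% and 39.9%. In the peaks without it, the GC box was in 12.9% against 13.1% of windows weighted to their GC content, and AAGATGG in 9.28% against 10.2%. The Klf motif CACCC was in 75.4% of the peaks and 75.9% of GC-weighted windows, the Esrrb motif AAGGTCA in 6.56% and 7.24%, the AP-1 motif TGANTCA in 8.50% and 9.33%, the E-box CACGTG in 6.50% and 6.57%, the GATA motif AGATAA in 9.48% and 10.7%, and the Nrf1 motif GCGCATGC in 1.05% and 0.767%. The Sox motif ACAATG was in 11.3% against 13.1%, and the CTCF core CCNNNAGGG in 24.8% against 29.1%. In the peaks without shared sequence the gap closed for Sox, at 13.7% in both, and turned for AAGGTCA (7.75% against 7.66%), TGANTCA (10.3% against 9.80%) and CACGTG (7.66% against 6.91%). It widened for CACCC, at 73.7% (95% interval 71.9 to 75.5) against 76.3%. For the CTCF core it stayed, at 26.9% (95% interval 25.1 to 28.7) against 30.1%. The Tead motif GGAATG was in 22.3% (95% interval 20.9 to 23.9) against 20.2%. In all windows without weighting, the motifs from CACCC to GGAATG were in 48.6%, 7.50%, 11.8%, 4.31%, 24.3%, 0.507%, 22.8%, 13.5% and 20.3%, in the same order, and the GC box and AAGATGG in 3.58% and 9.64%. A match is only a run of letters, and its absence says nothing about the factor.

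Along the peaks, matches to the GC box, the CTCF core and CACCC were densest at the summit. These densities pool all intronic peaks, with no weighting to GC content and no split by shared sequence. The part of either in the profiles was not tested. The GC box had 0.944 matches per kb within 100 bp of the summit and 0.249 per kb at 500 bp or more, and the CTCF core 0.937 and 0.504. CACCC had 4.35 and 2.50. AAGATGG had 0.543 and 0.280, but it was densest beside the summit, with 0.650 and 0.683 matches per kb in the steps centered 125 bp before and after it and 0.459 in the step just before it. The octamer went the other way, with 0.0213 and 0.0515 matches per kb, from few matches. It was not alone in this: the GATA motif had 0.218 and 0.562, and the Sox motif 0.287 and 0.505. The octamer with at most 1 mismatch had 0.353 and 1.02.

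**Figure D5:**
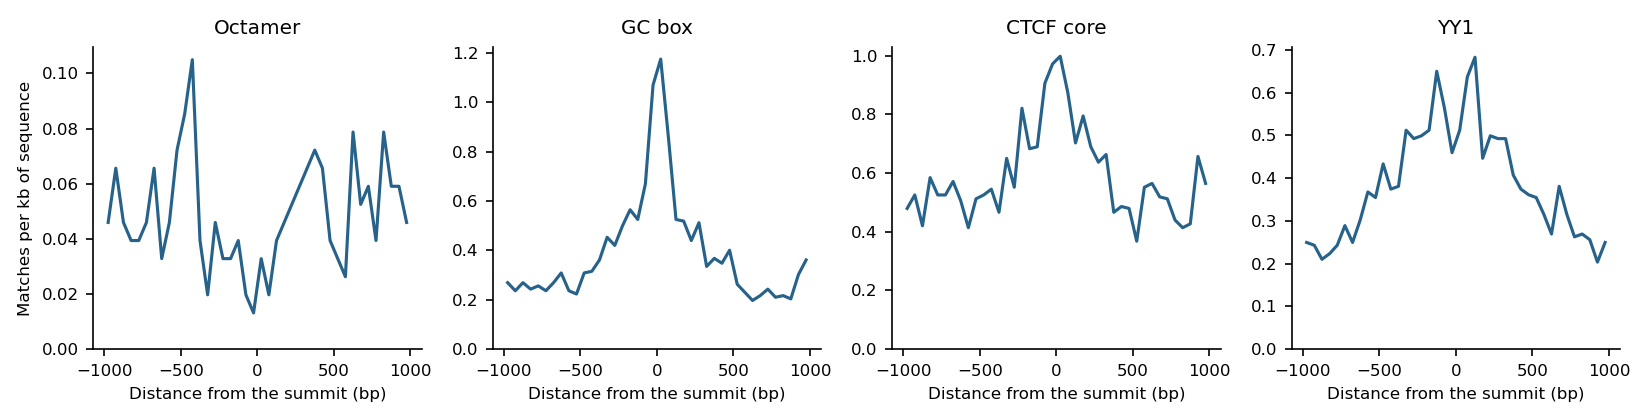
Matches per kb of sequence (y axis) to the octamer, GC box, CTCF core and YY1 motifs in 50-bp steps by distance from the summit of the intronic HBO1 peaks (x axis, bp). The GC box falls from 0.944 matches per kb near the summit to 0.249 in the flanks, while the octamer, with few matches, is lowest near the summit. All intronic peaks are pooled, with no weighting to GC content.

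RefSeq annotates 1006 enhancers on these chromosomes, and 13 intronic summits lay in one (0.427%, 95% interval 0.227 to 0.728). The share was 0.0900% of the windows, but 0.300% of windows weighted to the GC content of the peaks, which the interval includes. They included VISTA enhancers in Chd9, a chromatin remodeler gene (fold 7.46), in Pakap (6.30), in Epb41l3 (5.32), in Cyth1 (5.15) and in Fgfr1 (3.997). These genes were chosen after their values were seen. By the TSSs of RefSeq instead of GENCODE, 127 of the intronic peaks (4.17%) lay within 1 kb of a TSS.

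Intronic peaks were found on all 19 chromosomes, from 2.24 per Mb of eligible sequence on chromosome 3 and 2.39 on chromosome 10 to 4.97 per Mb on chromosome 11, the highest, which also had the windows with the highest median GC content, 44.0%. Chromosome 3 is given without the left-out segment, and had 2.53 per Mb before it and 0.995 past it, from 7 peaks. The summit of another HBO1 peak of any class lay within 5 kb of 620 of the intronic peaks (20.3%). This share was not computed for the windows or for the other classes of peaks. Of the 2541 introns with a peak, 325 held more than 1.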

How the data were processed

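HBO1 ChIP-seq was from Oct1 deficient mouse ESCs (2 ChIP samples and 1 input). The submitters' processing notes name Novoalign 4.03.01, MACS2 and mm10. How the ChIP samples were combined, and whether duplicate reads were removed, is not given in the sources used here. The deposited peak list gives, as the authors' peak caller computed them, a fold enrichment (a ratio over local background), a −log10 q value, a −log10 p and an integer score that were not used, and a summit offset. The lowest −log10 q in the list was 2.30. The deposited input gives aligned read ends with a mapping quality score from the authors' aligner. Of the 31973678 read ends, 68.5% had a score of at least 20. No normalization was applied.

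Peaks were placed with GENCODE vM21 and GRCm38 sequence in Python 3.11.15 with numpy 2.4.6, pandas 2.3.3, scipy 1.17.1 and networkx 3.6.1, and figures were drawn with matplotlib 3.10.9. Windows of 400 bp met the same rule as the peaks. GC weighting used classes of 2%. The input count of a peak or window was the number of read-end midpoints in 1 kb. The motif scan and the intron numbers were tested on simulated data. With 1 peak list no test was made and no p-value computed.

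Members and gene lists were chosen with earlier results of these data known. Named were the hosts of the 15 peaks with the highest fold and the 10 with the highest −log10 q, the 10 protein-coding hosts with the most peaks, and up to 5 hosts per list by highest fold. A few items that this rule selects are not reported here. Alternatives set a −log10 q of at least 5 or 10, a TSS distance over 5000 bp, at most 10 input read ends, and other hosts, transcripts, windows and motif rules.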

Additional observations from a re-analysis of the deposited data

How the results depend on the processing

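Most values moved by less than their counting error: of 72 alternative values, 49 stayed within it or, for the number of peaks, within 1.5 times. The number of peaks was 1809 when those of over 10 input read ends were left out and 470 when a −log10 q of 10 was required. The median fold was 5.30 with a −log10 q of at least 5, 6.01 with at least 10, 5.30 without peaks of over 10 input read ends and 4.86 without peaks that share sequence. The share in first introns was 45.9% by the lowest rank in any transcript, which was not computed for the windows. It was 32.1% in protein-coding hosts, against 27.0% of windows in such hosts. Its excess over the windows was 7.27 percentage points over 5000 bp from a TSS. The share of hosts with a promoter peak was 44.3% with a −log10 q of at least 10, 39.1% without peaks of over 10 input read ends and 39.96% without peaks that share sequence. Its excess over all genes, 12.7 percentage points, was 8.55 with genes weighted to the eligible length of the hosts, 15.8 for hosts only of peaks that share no sequence and, with the direction reversed, -1.30 for hosts only of peaks that do. The median GC content was 53.3% without peaks of over 10 input read ends and 55.0% over the whole peak. The share with an octamer was 0.638% with a −log10 q of at least 10, 0.394% in the 200 bp centered on the summit instead of 400 bp, and 16.5% with at most 1 mismatch. Its difference from the windows, -2.02 percentage points, reversed to 0.184 with GC-weighted windows and to 0.432 without peaks that share sequence and with windows weighted to their GC content, and was -0.587 with at most 1 mismatch and GC-weighted windows. The alternatives without shared sequence, without peaks near RefSeq TSSs, without the zinc finger cluster and by the innermost host were chosen after seeing the data. No paired analysis was possible because the deposited list gives 1 value per peak for both ChIP samples together. ChIP reads and their depth were not analysed here, and the spread of a peak between the 2 ChIP samples was not measured.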

Other observations

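The noncoding hosts held further dense runs of peaks. C230088H06Rik, a lincRNA gene that overlaps the zinc finger genes of chromosome 4, held 17 intronic peaks, of which 10 shared sequence with another intronic peak, and Gm26804, a lincRNA gene on chromosome 8, held 13 in a single intron with a highest fold of 7.18. These counts depend on the rule for hosts: by the innermost host Gm26804 held 10, and C230088H06Rik was not among the 10 genes with the most, the lowest of which held 7. Both were chosen after their values were seen.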
